A study of Mus musculus with 830 samples.

Results

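The nuclear-encoded respiratory chain genes are the symbols of the read count table that begin with Nduf, Uqcr or Atp5, or with Cox4 to Cox8, after names ending in -ps or os are left out. The rule found 88 of the 26313 symbols in the table, and no name was lost to the suffix filter. Of these genes, 44 belong to complex I, 8 to complex III, 20 to complex IV and 16 to complex V, the ATP synthase. By role, 70 encode constitutive subunits, 8 encode tissue isoforms of complex IV subunits and 10 encode assembly or accessory factors. The rule takes in the ATP synthase, which is not an electron carrier, and takes in Ndufa4 and Ndufa4l2, which carry a complex I name although the Ndufa4 protein is now placed in complex IV. It leaves out complex II, cytochrome c, the complex III subunit Cyc1 and all genes encoded by mitochondrial DNA, for which the table holds 0 symbols with the mt- prefix.

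Complexes I, III and IV pass electrons from NADH to oxygen and pump protons across the inner mitochondrial membrane. Complex V uses that gradient to make ATP. Most subunits are encoded in the nucleus and must be made in step with the few that the mitochondrion encodes. Several complex IV subunits exist as a common form and a tissue form, such as the heart and muscle form Cox7a1 and the form Cox4i2, which is abundant in lung and is raised by low oxygen in other cell types. Glycolysis, the other main source of ATP, is prominent in early embryos.

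Single cells came from endodermal and gut tissue of mouse embryos on a mixed C57BL/6 and C3H background, at 15, 18, 21, 24 and 27 somites (embryonic stage counted in body segments). There were 171 cells of genotype Ngn3-GFP/GFP (HM), 333 of genotype Ngn3-Cre; Ai6 (Ngn3Cre) and 326 of genotype Ngn3-GFP/+ (HZ). Ngn3, officially Neurog3, encodes the transcription factor that starts endocrine differentiation in pancreas and gut. The GFP alleles put a reporter at that gene. In Ngn3-Cre; Ai6 cells, Cre made under Ngn3 control switches on a fluorescent reporter for good, so the reporter also stays on in descendants of cells that once used Ngn3. All cells carry one of these alleles, and no cell without a reporter was analysed here. Cells were stained for the epithelial surface protein EpCAM and sorted live.

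No label ties a cell to an embryo. Cells were therefore summed by genotype and stage, and 11 of the 14 resulting pools held at least 10 cells and were tested: HM at 15, 18, 21 and 24 somites, Ngn3Cre at 21, 24 and 27 somites, and HZ at 18, 21, 24 and 27 somites. The p-values therefore measure the spread between these pools that is left after the terms of each fit, such as genotype and stage. HM and HZ share 18, 21 and 24 somites, and Ngn3Cre and HZ share 21, 24 and 27 somites. HM at 15 somites is alone at its stage, so it has no weight in the fitted difference between HM and HZ. Cells held 1400 to 2525083 reads (median 452597), and 117 cells held under 100000. Neurog3 itself stood at 6.18 to 11.1 CPM (read counts scaled to library size) in the HM pools, against 147 to 553 CPM in the Ngn3Cre pools and 79.4 to 132 CPM in the HZ pools. The 16 endocrine markers summed to 98.2 to 656 CPM in HM pools, 16473 to 27401 CPM in Ngn3Cre pools and 1132 to 17301 CPM in HZ pools. In summed cells, fewer cells of a type and less RNA per cell cannot be told apart.

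Promoter sequence is shown because respiratory chain genes are known to share binding sequences of the factors NRF1, GABP (of the ETS family) and YY1. RefSeq promoters of GRCm38.p6, from 250 bases before to 50 after the gene start, were matched by symbol for 73 of the 88 genes. On either strand, the NRF1 sequence GCGCANGCG was found in 20 of the 73 (27.4%), against 7.03% of all 27025 genes with a promoter in the table. The YY1 sequence AAGATGGCG was found in 8 (11%), against 1.64% of all genes, and the ETS sequence CCGGAAGTG in 2 (2.74%), against 2.25%. At least 1 of these was found in 29 (39.7%), against 10.2% of all genes. A match describes letters and not a bound site. Each line gives 120 bases of the window, 5′ to 3′ on the gene's strand, with a motif in capitals: Ndufs5 and Cox6a1 show NRF1 sequences, Uqcrh shows the ETS sequence on its opposite strand, and Cox7a2 and its muscle isoform partner Cox7a1 hold none of the motifs.
Ndufs5 (chr4:123718187-123718306, minus strand): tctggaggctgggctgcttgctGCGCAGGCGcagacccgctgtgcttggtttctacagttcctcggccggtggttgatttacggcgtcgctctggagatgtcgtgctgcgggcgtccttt
Cox6a1 (chr5:115348959-115349078, minus strand): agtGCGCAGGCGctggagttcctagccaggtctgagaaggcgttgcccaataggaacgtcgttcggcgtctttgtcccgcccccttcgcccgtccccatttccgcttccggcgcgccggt
Uqcrh (chr4:116075071-116075190, minus strand): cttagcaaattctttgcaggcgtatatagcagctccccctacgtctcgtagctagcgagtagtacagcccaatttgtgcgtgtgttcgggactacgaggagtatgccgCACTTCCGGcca
Cox7a2 (chr9:79759854-79759973, minus strand): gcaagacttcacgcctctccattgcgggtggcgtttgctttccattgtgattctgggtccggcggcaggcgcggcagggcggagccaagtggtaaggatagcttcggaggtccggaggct
Cox7a1 (chr7:30184051-30184170, plus strand): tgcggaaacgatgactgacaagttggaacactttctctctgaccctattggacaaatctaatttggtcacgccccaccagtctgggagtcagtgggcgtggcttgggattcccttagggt

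All 88 genes had at least 1 read. Together they took 2.53% of all reads, and in the median cell 78 of them were detected and they took 2.48% of reads (quartiles 2.11% and 2.88%). Summed by pool, the share was 2.19%, 2.65%, 2.54% and 2.095% in HM at 15, 18, 21 and 24 somites. It was 2.66%, 2.73% and 2.71% in Ngn3Cre at 21, 24 and 27 somites, and 2.53%, 2.53%, 2.41% and 2.55% in HZ at 18, 21, 24 and 27 somites. The 3 Ngn3Cre pools lay above all 4 HZ pools, while the HM pools lay on both sides of them.

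Levels between genes are compared in TPM, which scales counts by gene length as well as library size. The median gene stood at 361 TPM as a mean over the 11 pools, 69 genes were at or above 100 TPM and 17 at or above 1000 TPM. Complex IV subunits had the highest median level, 1500 TPM over 11 genes, ranging from 336 TPM for Cox6c to 2570 TPM for Cox6b1. The 15 complex V subunits had a median of 682 TPM, the 8 complex III subunits 415 TPM and the 36 complex I subunits 326 TPM. The 10 assembly and accessory factors had a median of 30.9 TPM, from 14.9 TPM for Ndufaf5 to 365 TPM for Cox7a2l, a factor that joins complexes III and IV. The lengths behind TPM are the authors', and only 13.3% of them equal those of the GENCODE vM21 annotation, so close ranks depend on them.

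**Figure D1:**
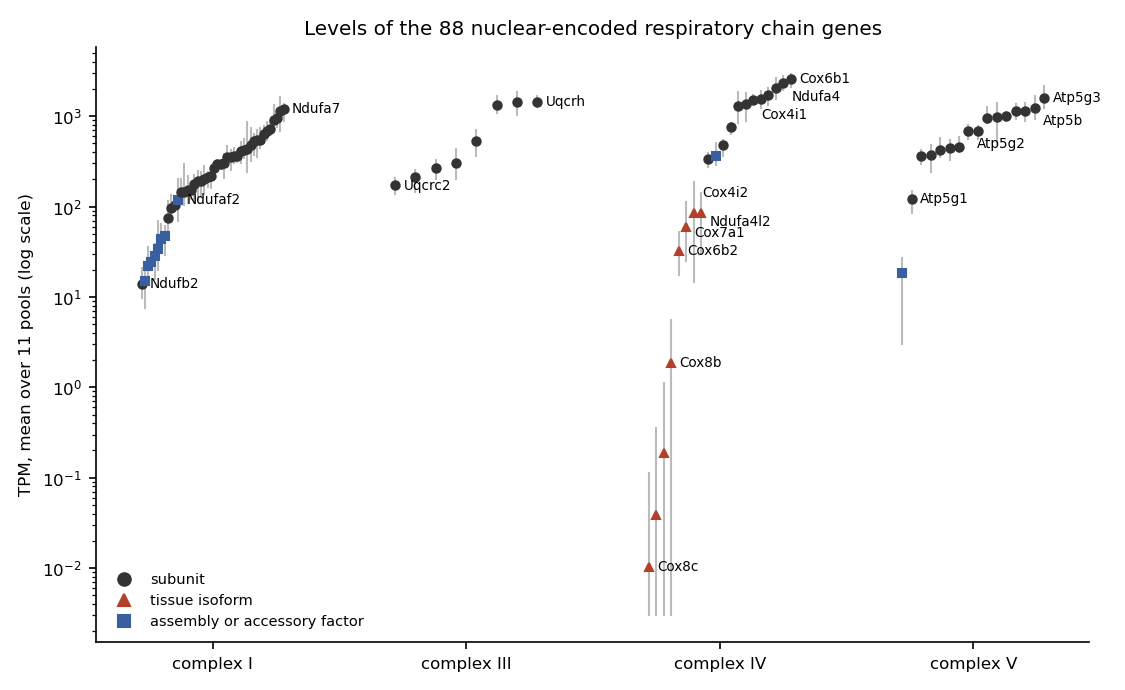
TPM level (log axis) of each of the 88 genes as the mean over 11 pools, ordered by level within each complex. Grey lines run from the lowest to the highest pool and reach the bottom of the axis where a pool is listed at 0. Constitutive subunits (dark circles) lie mostly above 100 TPM, assembly and accessory factors (blue squares) mostly below, and 4 tissue isoforms (red triangles) lie below 5 TPM.

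Cox6b1, which lies between the monomers of the complex IV dimer, had the highest level, at 2395 ± 213 TPM in HM pools, 2759 ± 161 TPM in Ngn3Cre pools and 2602 ± 174 TPM in HZ pools (SD, n = 4, 3 and 4). Ndufa4 followed at 2186 ± 187, 2459 ± 132 and 2442 ± 280 TPM in HM, Ngn3Cre and HZ pools. Cox5b, a zinc-binding subunit, stood at 1724 ± 163, 2453 ± 153 and 2098 ± 216 TPM in the same order.

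In complex V, Atp5g3 was highest at 1354 ± 139, 1879 ± 228 and 1601 ± 91.8 TPM, followed by the catalytic subunit Atp5b at 1041 ± 122, 1483 ± 174 and 1225 ± 122 TPM and Atp5h at 921 ± 42.3, 1326 ± 48.8 and 1181 ± 212 TPM (HM, Ngn3Cre and HZ; SD, n = 4, 3 and 4). In complex III, Uqcrh, which helps cytochrome c dock, stood at 1426 ± 149, 1471 ± 92.9 and 1454 ± 181 TPM in HM, Ngn3Cre and HZ pools, differing by less than its spread. Uqcr11, a small membrane subunit, stood at 1138 ± 75.0, 1670 ± 308 and 1549 ± 160 TPM and Uqcrb at 1249 ± 178, 1288 ± 61.1 and 1464 ± 191 TPM in the same groups. In complex I the highest were the accessory subunits Ndufa7, at 1293 ± 100, 1137 ± 94.1 and 1135 ± 203 TPM, Ndufa1, at 793 ± 129, 1477 ± 187 and 1207 ± 210 TPM, and Ndufa6, at 1019 ± 178, 855 ± 56.3 and 974.98 ± 65.9 TPM in HM, Ngn3Cre and HZ pools.

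For 59 of the 88 the highest pool was under 2 times the lowest, with the smallest ratio, 1.25, for Atp5o, the stalk subunit that links the catalytic and membrane parts of the ATP synthase, for Cox4i1, the common form of subunit 4, and for Ndufb5, an accessory subunit of complex I. The largest ratio among genes with reads in all pools was 12.7, for Cox4i2.

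The tissue isoforms were low and uneven. Cox4i2 (chr2:152754173-152765037, plus strand, GRCm38) had 55.8, 72.8, 47.4 and 69.6 CPM in HM at 15, 18, 21 and 24 somites. It had 11.1, 5.91 and 24.8 CPM in Ngn3Cre at 21, 24 and 27 somites, and 34.1, 35.4, 24.1 and 10.2 CPM in HZ at 18, 21, 24 and 27 somites. Every HM pool was above every HZ pool, while the Ngn3Cre and HZ pools overlapped. As a share of the summed TPM of Cox4i1 and Cox4i2, Cox4i2 made up 9.18 ± 2.13% in HM, 1.57 ± 0.86% in Ngn3Cre and 4.15 ± 1.78% in HZ pools. Cox4i2 reads were found in 322 of 830 cells, among them 57 of 80 in HM at 24 somites, 28 of 155 in Ngn3Cre at 24 somites and 34 of 85 in HZ at 24 somites. Its reads were unevenly spread, since 5 cells held 98.4% of its reads in HM at 18 somites, 29.9% in HM at 24 somites and 89.1% in Ngn3Cre at 27 somites.

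Cox7a1 averaged 18.6 ± 4.73 CPM in HM, 8.04 ± 0.565 CPM in Ngn3Cre and 10.5 ± 6.62 CPM in HZ pools (SD, n = 4, 3 and 4). Ndufa4l2, the counterpart of Ndufa4 that is raised by low oxygen in several cell types, averaged 33.1 ± 12.0, 42.0 ± 21.6 and 44.6 ± 14.2 CPM in HM, Ngn3Cre and HZ pools, with full overlap. Cox6b2, the testis counterpart of Cox6b1, averaged 13.2 ± 3.62, 11.5 ± 0.773 and 9.98 ± 2.76 CPM in HM, Ngn3Cre and HZ pools and had 4772 reads in 297 cells. The other 4 isoforms were close to absent: Cox8b, a muscle form, had 151 reads in 16 cells, Cox7b2 had 40 reads, Cox6a2, another muscle form, had 4 and Cox8c had 1.

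The 3 genes Atp5g1, Atp5g2 and Atp5g3 encode the same mature subunit c of the ATP synthase and differ in the peptide that directs import. Atp5g2 made up 34.0 ± 1.70% of their summed TPM in HM, 23.5 ± 1.41% in Ngn3Cre and 27.7 ± 3.33% in HZ pools. Atp5g3 made up 61.4 ± 1.47%, 71.1 ± 1.74% and 67.0 ± 2.91% in HM, Ngn3Cre and HZ pools. Every HM pool had a higher Atp5g2 share, and a lower Atp5g3 share, than every HZ pool. The shares are descriptions and were not tested.

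**Figure D2:**
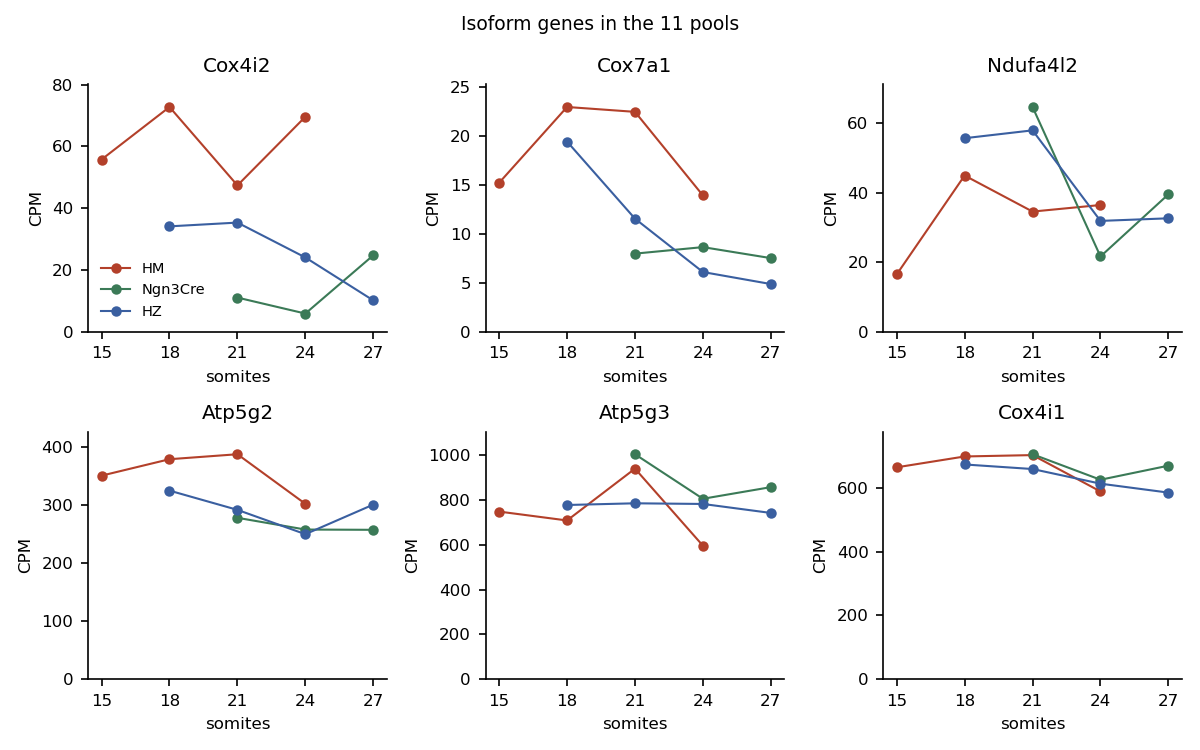
CPM of 6 isoform genes (linear axes from 0) against stage in somites, 1 point per pool, for HM (red), Ngn3Cre (green) and HZ (blue). Cox4i2 is above the HZ level in every HM pool, and Cox4i1 lies close together in all 3 genotypes (665 ± 52.9, 668 ± 40.2 and 634 ± 40.9 CPM in HM, Ngn3Cre and HZ).

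HM cells carry the GFP allele on both copies of Ngn3 and HZ cells on a single copy, and the comparison asks what differs between them. No respiratory chain gene passed an adjusted p of 0.05 by edgeR's quasi-likelihood test with Benjamini-Hochberg adjustment, of 86 tested, while 1.47% of all 18420 genes tested did. Unadjusted, 6 of the 86 (6.98%) and 13.4% of all genes had p under 0.05, and DESeq2 called 0 of the 86 and 1386 of all genes. The genes' median log2 difference was −0.04, against −0.09 for all genes. Of the 86, 37 were positive and 49 negative, and the share positive was 43.0%, against 44.8% of all genes. For 74 of the 86 the 95% interval of the difference lay within a 2-fold change either way.

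The 4 genes of smallest p were Cox7a2l, Ndufa6, Cox4i2 and Ndufs5. Cox7a2l had 211, 269, 285 and 278 CPM in HM at 15, 18, 21 and 24 somites and 212, 205, 214 and 203 CPM in HZ at 18, 21, 24 and 27 somites. Its log2 difference was 0.41 ± 0.14 (SE; edgeR adjusted p = 0.219), and the youngest HM pool overlapped the HZ pools. Ndufa6, an accessory subunit of complex I, differed by 0.37 ± 0.13 (edgeR adjusted p = 0.265) but by −0.083 with limma on log2(CPM + 1), and Cox4i2 by 1.32 ± 0.51 (edgeR adjusted p = 0.291). Ndufs5, a small accessory subunit of complex I, had 169, 175, 188 and 142 CPM in HM at 15 to 24 somites and 216, 225, 205 and 269 CPM in HZ at 18 to 27 somites. Its log2 difference was −0.41 ± 0.16 (edgeR adjusted p = 0.306). Its groups did not overlap, but it was picked by its small p, and overlap was not counted over all genes.

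Stage by stage, the median log2 difference between HM and HZ was taken over the 84 genes with a mean of at least 10 CPM. It was 0.08 at 18 somites (54 higher, 30 lower), 0.04 at 21 somites (48 higher, 36 lower) and −0.21 at 24 somites (21 higher, 63 lower). These counts were not made over all genes. The fitted median over all tested members was 0.09 without HM at 24 somites, and stayed between −0.11 and −0.0036 with any other single pool left out. The share of cells with endocrine markers moved with the genotype: 3.70 to 13.8% of cells in HM pools had at least 4 markers, against 31.1 to 92.3% in HZ pools. Median reads per cell were 530558 to 688858 in HM pools and 282930 to 645376 in HZ pools. With only cells below that number of markers, the median was 0.06 (all genes −0.01) and Cox4i2 differed by 0.56, which is under its value over all cells.

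Ngn3Cre and HZ cells differ in how the Ngn3 lineage is marked, and also in makeup. At least 4 endocrine markers were found in 94.2 to 98.1% of cells in Ngn3Cre pools, against 31.1 to 92.3% in HZ pools. The HZ pools are the same as in the HM comparison, so the 2 comparisons share them. None of 86 genes tested passed an adjusted p of 0.05 by edgeR's quasi-likelihood test, while 0.337% of all genes did. Unadjusted, 5 of the 86 (5.81%) and 10.5% of all genes had p under 0.05, and DESeq2 called 0 of the 86 and 920 of all genes. The median log2 difference was 0.10, against −0.02 for all genes. Of the 86, 60 were positive and 26 negative, and the share positive was 69.8%, against 48.8% of all genes. The median was 0.03 without Ngn3Cre at 24 somites, 0.16 without Ngn3Cre at 21 somites and 0.06 without HZ at 21 somites. For 75 of the 86 the 95% interval lay within a 2-fold change.

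Ndufs1, the largest complex I subunit and a carrier of iron-sulfur clusters, had 155, 140 and 156 CPM in Ngn3Cre at 21, 24 and 27 somites, against 81.3, 114, 120 and 108 CPM in HZ at 18, 21, 24 and 27 somites. Its log2 difference was 0.44 ± 0.17 (edgeR adjusted p = 0.350). Its groups did not overlap, but this gene too was picked by its small p. Uqcrfs1 (chr13:30540308-30545362, GRCm38), the Rieske iron-sulfur protein of complex III, had 321, 283 and 280 CPM in Ngn3Cre and 229, 222, 225 and 236 CPM in HZ, a log2 difference of 0.36 ± 0.14 (edgeR adjusted p = 0.374). Atp5l, a membrane subunit of the ATP synthase, differed by 0.38 ± 0.15 (edgeR adjusted p = 0.396), and the genome holds 8 near-identical pseudogene copies that could share its reads. Ndufb11, an accessory subunit of complex I, differed by 0.41 ± 0.16 (edgeR adjusted p = 0.400). Within the cells that had at least 4 endocrine markers, the median over the genes was 0.02, against 0.03 for all genes.

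**Figure D3:**
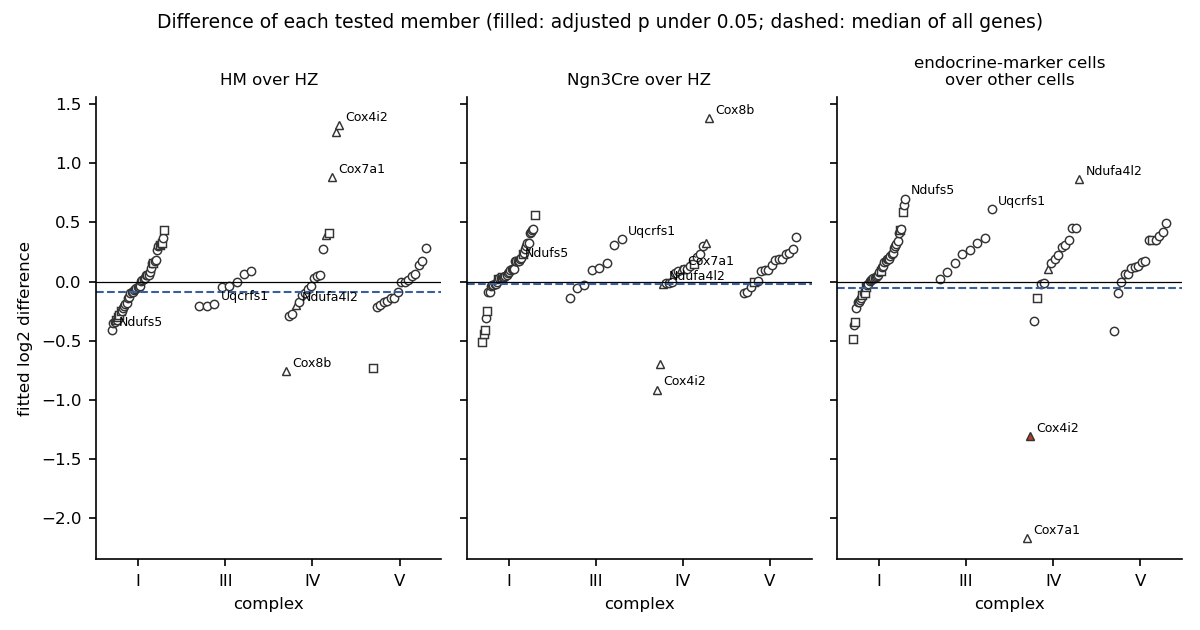
Fitted log2 difference of each tested respiratory chain gene by complex, for HM over HZ, Ngn3Cre over HZ and endocrine-marker cells over other cells; circles are subunits, triangles isoforms and squares assembly or accessory factors. The dashed line is the median of all genes tested, and the filled triangle, Cox4i2 at −1.31, is the only gene with an edgeR adjusted p under 0.05 in these 3 comparisons.

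Across stage, fitted as log2 change per somite within genotype, none of 85 genes tested passed an adjusted p of 0.05 by edgeR's quasi-likelihood test, and neither did any of the 16478 genes tested (0%). Unadjusted, 3 of the 85 and 1377 of all genes had p under 0.05, and DESeq2 called 0 of the respiratory chain genes and 305 of all genes. The median slope was −0.02 per somite, against 0.00 for all genes. Slopes were positive for 19 and negative for 66, and the share positive was 22.35%, against 51.8% of all genes. The median slope was 0.001 without HM at 24 somites and 0.008 with limma on log2(CPM + 1), so its sign is not settled. Uqcrb, a subunit needed to build complex III, had 480, 514, 396 and 324 CPM in HM at 15 to 24 somites, 396, 386 and 348 CPM in Ngn3Cre at 21 to 27 somites and 512, 475, 416 and 384 CPM in HZ at 18 to 27 somites. Its slope was −0.05 ± 0.02 per somite (edgeR adjusted p = 0.389). Ndufa4 and Ndufa13 had slopes of −0.04 and −0.05 (edgeR adjusted p = 0.556 for both), and Cox7a1 had −0.11 ± 0.05 (edgeR adjusted p = 0.608). Without HZ at 18 somites the slopes of Ndufa13 and Cox7a1 were −0.03 and −0.06, without HZ at 27 somites that of Cox7a1 was −0.07, and inside the endocrine gate defined further on it was 0.0174.

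Whether HM and HZ cells change differently with stage was tested for 84 genes, and 0 passed an adjusted p of 0.05 by edgeR's quasi-likelihood test, as did 0% of all genes. Unadjusted, 2 of the 84 and 1232 of all 16207 genes had p under 0.05, and DESeq2 called 171 of all genes and none of the 84. Cox7a2, the common form of subunit 7a, had a slope lower by 0.12 ± 0.04 in HM (edgeR adjusted p = 0.643), and Cox4i2 one higher by 0.20 ± 0.08 (edgeR adjusted p = 0.648). Atp5h, a stalk subunit of the ATP synthase, differed by −0.08 and Ndufv1, the NADH-binding subunit of complex I, by −0.13 (edgeR adjusted p = 0.655 for both). With 1 pool left out the difference ran from 0.09 (without HZ at 27 somites) to 0.31 (without HZ at 18 somites) for Cox4i2, from −0.15 (without HM at 15 somites) to −0.07 (without HZ at 27 somites, and −0.08 without HM at 24 somites) for Cox7a2, and from −0.22 (without HM at 15 somites) to −0.08 (without HZ at 27 somites) for Ndufv1.

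A gate on endocrine genes was set within pools: cells with at least 4 of the 16 markers at 50 CPM or more against the rest. It held 546 of the 830 cells, 36 with exactly 4 markers and 31 just outside with 3. Of the pools, 4 had at least 10 cells on each side, HM at 24 somites and HZ at 18, 21 and 24 somites, and each was compared with itself. Cox4i2 fell in endocrine-marker cells, and no other respiratory chain gene passed the test, of 84 tested. Over all 15516 genes, 6.29% passed.

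Cox4i2 had 29.9 CPM in endocrine-marker cells and 78.7 CPM in other cells of HM at 24 somites. In HZ it had 14.6 against 42.5 CPM at 18 somites, 21.8 against 55.4 CPM at 21 somites and 17.4 against 36.9 CPM at 24 somites. It was lower in endocrine-marker cells in 4 of 4 pools, by 1.31 ± 0.26 on the log2 scale (SE, 95% interval −2.12 to −0.49; edgeR adjusted p = 0.0253). The call was lost without HZ at 18, 21 or 24 somites (adjusted p = 0.0853, 0.167 and 0.0757) and kept without HM at 24 somites (0.0204), and over all its alternatives the adjusted p ran from 1.44e-05 by DESeq2 to 0.167. Leaving out cells outside the gate with at least 3 neural or 3 hepatic markers gave −1.39 (edgeR adjusted p = 0.0576). Such cells inside the gate were kept. Cox4i1, its partner, differed by −0.01 (95% interval −0.48 to 0.45).

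Over all 84 genes tested, Cox4i2 included, the median log2 difference was 0.13, against −0.05 for all genes. Of the 84, 62 were positive and 22 negative, and the share positive was 73.8%, against 47.7% of all genes. The median difference was 0.01 without HZ at 24 somites and 0.07 without HM at 24 somites, so its size depends on them. By complex, the medians of the subunits were 0.10 for complex I (27 of 36 positive), 0.25 for complex III (8 of 8), 0.23 for complex IV (8 of 11) and 0.14 for complex V (13 of 15). Assembly and accessory factors had a median of −0.07. Uqcrfs1 had 287 CPM in endocrine-marker cells and 196 CPM in other cells of HM at 24 somites, and 308 against 183, 247 against 191 and 267 against 170 CPM in HZ at 18, 21 and 24 somites. It was higher in 4 of 4 pools, by 0.61 ± 0.17, but missed the threshold (edgeR adjusted p = 0.0691), as did Ndufs5 at 0.70 ± 0.19 (edgeR adjusted p = 0.0709). DESeq2 called 6 of the 84: Atp5f1, Ndufa1, Ndufs5 and Uqcrfs1 higher and Cox4i2 and Cox7a1 lower. It called 3000 of all 15516 genes, a larger share. Of the 84 genes with at least 10 CPM, 17 were higher in 4 of 4 pools and 6 in none. This count used CPM scaled to library size alone and was not made over all genes. It therefore does not show whether these genes differ from others in direction. Only 61 of the 84 intervals lay within a 2-fold change. In counts simulated over all genes for this design, 0 of 195 log2 changes of 1 and 99 of 193 log2 changes of 2 were called. A gene that did not pass may therefore still differ.

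Apart from Cox4i2, the isoform genes differed in direction, and none of them passed. Cox7a1 had 0.589 CPM in endocrine-marker cells and 16.5 CPM in other cells of HM at 24 somites, and 4.05 against 26.2, 6.94 against 18.3 and 5.48 against 7.55 CPM in HZ at 18, 21 and 24 somites. It was lower in endocrine-marker cells in 4 of 4 pools but missed the threshold. Its difference was −2.17 ± 0.77 (edgeR adjusted p = 0.142). Atp5g2 was lower in endocrine-marker cells in 4 of 4 pools, by −0.42 ± 0.16 (edgeR adjusted p = 0.165), and Atp5g3 higher in 4 of 4, by 0.35 (edgeR adjusted p = 0.207). Ndufa4l2, in contrast, had a positive difference of 0.87 that did not pass, with HZ at 18 somites the other way. Cox6b2 was higher in endocrine-marker cells in 3 of 4 pools, also with HZ at 18 somites the other way, and did not pass.

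**Figure D4:**
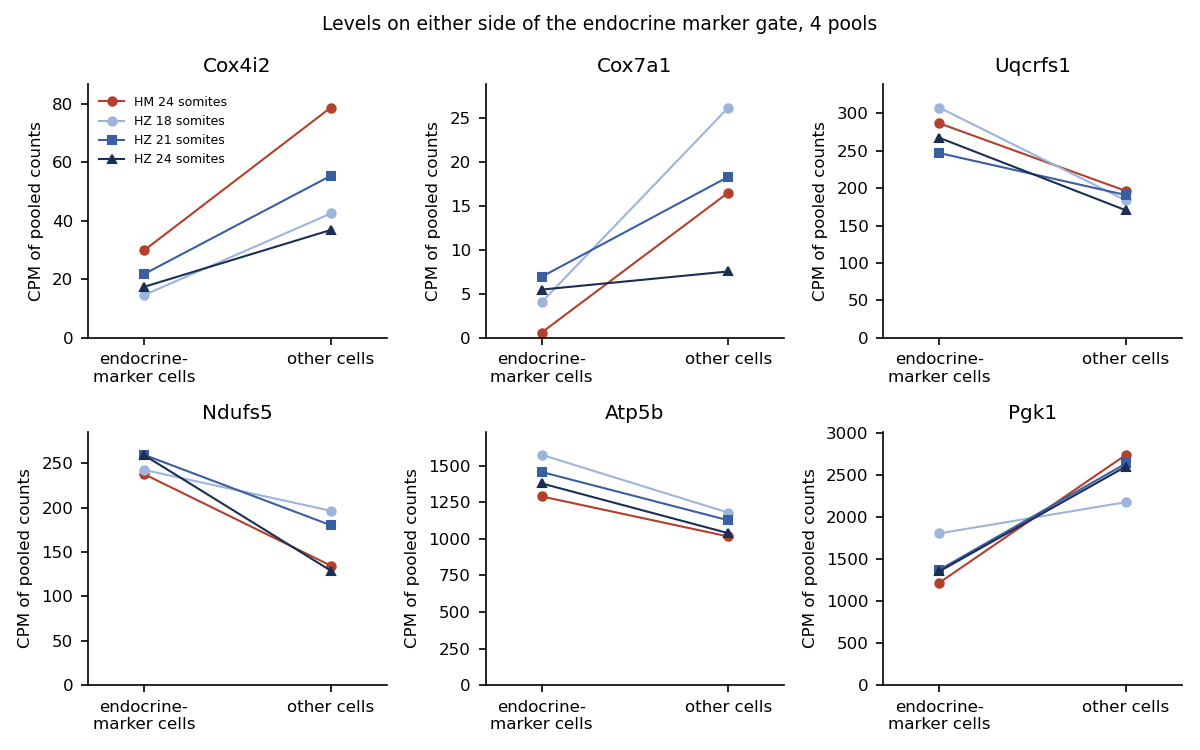
CPM of the pooled counts in endocrine-marker cells (left) and other cells (right) of the 4 pools, with 1 line per pool (linear axes from 0). Cox4i2, Cox7a1 and Pgk1 are lower in endocrine-marker cells in all 4 pools, and Uqcrfs1, Ndufs5 and Atp5b are higher in all 4.

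Cells inside and outside the gate also differ in type and makeup. Of 10 neural markers, 6 rose in endocrine-marker cells, and of 9 hepatic markers 2, Afp and Apoa1, fell. The gut marker Cdx2 (−4.30, edgeR adjusted p = 0.00543), the progenitor marker Sox9 (−2.20, edgeR adjusted p = 0.00898) and the epithelial marker Krt18 (−2.40, edgeR adjusted p = 0.0253) fell as well, and the endothelial marker Kdr rose by 5.25 (edgeR adjusted p = 0.0434). Between Ngn3Cre and HZ, Cdx2 fell by 3.94 (edgeR adjusted p = 0.0222), the only call of the 5 gut markers, 1 of which was positive. The neural markers summed to 9.5 to 1009 CPM in HM, 2059 to 3688 in Ngn3Cre and 640 to 1983 CPM in HZ pools, the hepatic markers to 242 to 15424, 815 to 1603 and 1193 to 9795 CPM, and the blood markers to 1.0 to 6.4 CPM over all pools. Their part in the results was not tested beyond leaving out cells outside the gate with neural or hepatic markers, as given for Cox4i2. Cells inside the gate with neural or hepatic markers were never left out.

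Among the other energy genes, whose lists were chosen with earlier results of these data known, glycolysis held the most calls. Of 21 glycolysis genes, 6 fell in endocrine-marker cells and 0 rose, while 434 of all 15516 genes fell and 542 rose. By sign alone, 14 of the 21 were negative and 7 positive, against 8118 and 7398 of all genes. Slc2a3, a high-affinity glucose transporter, had 24.4 CPM in endocrine-marker cells and 571 CPM in other cells of HM at 24 somites, and 278 against 1167, 37.5 against 785 and 52.5 against 367 CPM in HZ at 18, 21 and 24 somites. It fell by 3.42 ± 0.44 on the log2 scale (edgeR adjusted p = 0.00504). Slc2a1, the widespread glucose transporter, fell by 1.65 (edgeR adjusted p = 0.00865) and Ldhb, a lactate dehydrogenase subunit, by 2.03 (edgeR adjusted p = 0.0143). The remaining 3 were Gapdh (−0.64), Pgk1 (−0.80) and Pdk1 (−1.22), the last a kinase that shuts off pyruvate dehydrogenase.

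Of 18 genes of the tricarboxylic acid cycle and pyruvate dehydrogenase, 15 had positive differences, against 47.7% of all genes. Only Suclg2, a subunit of succinyl-CoA ligase, passed the test, falling by 1.97 ± 0.28 (edgeR adjusted p = 0.0083). None of 8 complex II genes passed, with 7 positive. None passed of a list of 15 genes that holds Cycs, which is cytochrome c, Cyc1, Coq genes of ubiquinone synthesis and Etf electron-transfer genes. Cycs differed by 0.88 (edgeR adjusted p = 0.0524) and Cyc1 by 0.68 (edgeR adjusted p = 0.0754). Slc25a5, which exchanges ADP for ATP across the inner membrane, rose by 1.17 ± 0.23 (edgeR adjusted p = 0.026), the single call among 8 carriers. Cytosolic ribosomal protein genes had a median of −0.39, against −0.05 for all genes, with 77 of 80 negative, against 8118 of all 15516. Past the threshold as lower were 5 of the 80 and 434 of all genes, and 6.29% of all genes passed in either direction. Of 75 mitochondrial ribosomal genes only Mrpl1 rose, by 0.97 (edgeR adjusted p = 0.0387). Lists of 13 complex IV assembly genes and 14 biogenesis genes held no call.

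Between HM and HZ no gene of these energy lists passed. Positive differences were found for 18 of 21 glycolysis genes, against 44.8% of all genes (median 0.32, against −0.09 for all genes). Between Ngn3Cre and HZ, Gapdh fell by 1.03 ± 0.16 (edgeR adjusted p = 0.0364).

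Graded by marker number, HZ cells with 0 to 1, 2 to 3, 4 to 6, 7 to 9 and 10 to 16 markers gave 2.45%, 2.30%, 2.36%, 2.49% and 2.75% of reads to the respiratory chain genes (77, 37, 54, 56 and 102 cells). Cox4i2 had 53.9, 21.9, 42.3, 13.7 and 3.58 CPM in the summed cells of these classes, from the fewest markers to the most. Ndufs5 stood at 170 CPM in the lowest class and 297 CPM in the highest, Uqcrfs1 at 189 and 287 CPM, and Atp5b, a catalytic subunit of the ATP synthase, at 1096 and 1501 CPM. The glycolytic enzyme Pgk1 stood at 2443 CPM in the lowest class and 984 CPM in the highest. The steps were not even, since the lowest respiratory chain share was in cells with 2 to 3 markers and Cox4i2 was higher at 4 to 6 than at 2 to 3. In HM cells with 0 to 1, 2 to 3 and 4 to 6 markers the share was 2.31%, 2.33% and 2.16%, lowest in the class with most markers, and Cox4i2 had 65.8, 82.1 and 34.5 CPM. In Ngn3Cre cells Cox4i2 had 14.3, 25.9, 37.0 and 5.42 CPM from 2 to 3 up to 10 to 16 markers. Median reads per cell in HZ were 507470 in the lowest class and 334980 in the highest, and the classes mix stages. The share of reads in ribosomal protein genes also moved with the classes, at 13.5% in the lowest and 7.94% in the highest, and its part in the result was not tested.

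**Figure D5:**
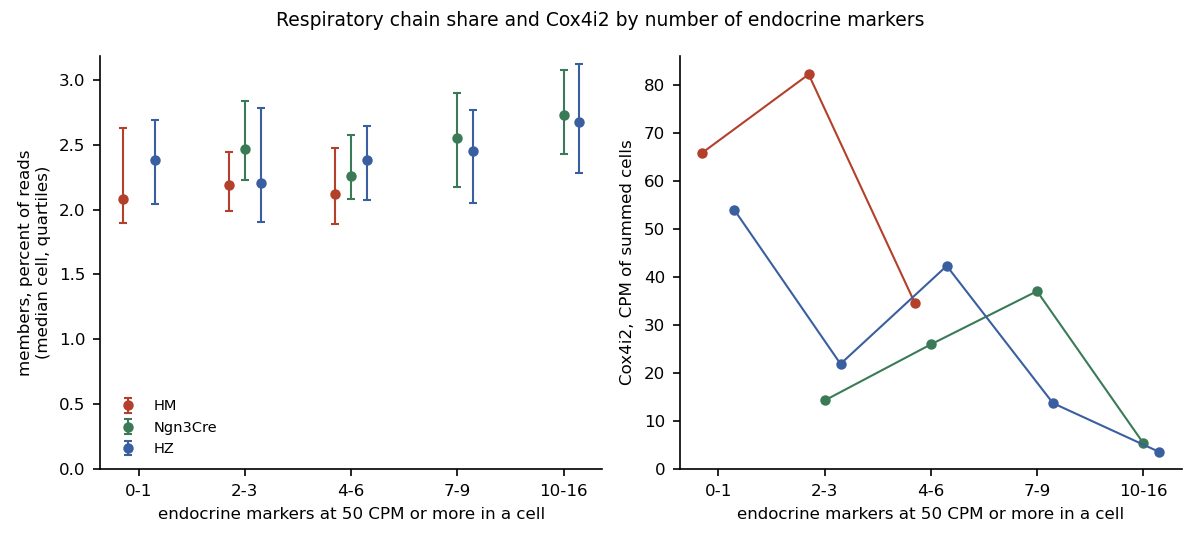
Left, percent of reads in the respiratory chain genes (median cell, bars for quartiles); right, Cox4i2 CPM of summed cells; both against the number of endocrine markers at 50 CPM or more in a cell, for HM (red), Ngn3Cre (green) and HZ (blue). In HZ, Cox4i2 is at 53.9 CPM with 0 to 1 markers and 3.58 CPM with 10 to 16.

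Cell by cell, over 830 cells that share pools and depth differences, the share of reads in respiratory chain genes had a Spearman correlation of 0.329 with the number of endocrine markers, −0.056 with total reads and −0.19 with the share in ribosomal protein genes. The ribosomal share had −0.715 with the number of endocrine markers. Over 10708 genes detected in at least 20% of cells, the 10 genes closest to Cox4i2 across cells were Pgk1 (0.51), Gapdh (0.48), Ldha (0.48), Pkm (0.46), Galk1 (0.46), Rpl13 (0.46), Fam162a, Rpl17, Rps6 and Rpl23 (0.44 each). The first 4 encode glycolytic enzymes, and Rpl13, Rpl17, Rps6 and Rpl23 encode cytosolic ribosomal proteins. The respiratory chain gene closest to it was Ndufa4l2, at 0.228 and rank 897. These are descriptions across cells, which are not replicates.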

How the data were processed

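Smart-seq3xpress libraries of 830 sorted single cells, each its own sample, were deposited as read counts and TPM per gene symbol. Per the submitters' processing notes, reads were checked with FastQC 0.11.9, trimmed with Trimmomatic 0.39 and aligned with HISAT2 2.1.0 to GRCm38/mm10; for the counter and its use of strand and molecular identifiers, nothing is given in the sources used here. The counts deposited by the authors are raw, and 57.2% of nonzero counts are even in the median cell. The TPM values deposited by the authors use their own gene lengths. No columns were left unused and 0 columns were duplicates.

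Counts were summed by genotype and stage in pools of at least 10 cells, filtered with filterByExpr, scaled by TMM and tested with edgeR 4.0.16 quasi-likelihood fits (R 4.3.3) with genotype and stage as terms, or with the pool as block for the endocrine gate, p-values being adjusted over all genes tested. CPM of the respiratory chain genes by pool are TMM-scaled. CPM on either side of the gate, by marker number and of summed markers are scaled to library size alone. TPM are means over cells, SE is the difference divided by the square root of F, and 95% intervals use the residual degrees of freedom. Alternatives used DESeq2 1.42.0, limma 3.58.1 on log2(CPM + pseudocount), other gates and filters, and each pool left out. Scripts were tested on simulated data over all genes. Of log2 changes of 1, 3 of 196 were called between HM and HZ and 0 of 197 between Ngn3Cre and HZ. Of log2 changes of 2, 101 of 197 and 102 of 195 were called. For a log2 change of 1 over the range of the tested term, 0 of 194 were called for the stage slope and 0 of 193 for the slope difference. The changes were drawn from all genes, whose median SE between HM and HZ was 0.517, against 0.163 for the respiratory chain genes. These rates therefore do not give the recovery of the respiratory chain genes, and one that did not pass may still have changed. Genes named were every gene past the threshold, or the 4 of smallest p, the 3 highest in TPM per complex, tissue isoforms, and up to 3 per other list; further names (Gapdh, Pgk1, Pdk1, Ldha, Pkm, Galk1, the ribosomal genes, Fam162a, Ndufb5, Atp5o, Atp5f1) were chosen after their values were seen. The members and lists were chosen with earlier results of these data known. Exons of 32 of the genes overlap another gene, and 20 have a near-identical pseudogene copy, so their reads may be split. Doublets were not called.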

Additional observations from a re-analysis of the deposited data

Results flagged for a closer look

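In 6 of 72 groups of 4 pools checked, 1 pool stood far from the other 3, for the following values. About 1 in 20 groups would be picked out by chance, and each is 1 pool. Cox7a2 was at 758 CPM in HZ at 27 somites, against 550 to 581 CPM in the other HZ pools. The respiratory chain genes took 2.41% of reads in HZ at 24 somites, against 2.53% to 2.55% in the other HZ pools. The other 4 concern genes with almost no reads. Cox6a2 stood at 0.0973 CPM in HZ at 24 somites and Cox8c at 0.0409 CPM in HZ at 18 somites, with 0 in the other HZ pools. Cox7b2 stood at 0.626 CPM in HM at 21 somites and Cox8b at 0.35 CPM in HM at 24 somites, against at most 0.0553 and 0.0544 CPM in the other HM pools.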

How the results depend on the processing

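Between genotypes, no paired analysis was possible because the replicate numbers in the labels only number cells. The genotype fits keep stage as a factor instead, and the gate fit pairs the sides of each pool as a block. In the endocrine gate comparison the count of respiratory chain genes past the threshold was 1 as reported and 6 with DESeq2. It was 0 with a gate of at least 2 markers and 3 with at least 6 markers (Cox4i2 and Atp5g2 lower, Ndufa1 higher). It was 0 when cells outside the gate with neural or hepatic markers were left out, and 0 to 1 when each pool was left out. The cause was not tested. Counts in the other comparisons stayed at 0 under every alternative run. Ndufa6 between HM and HZ turned to −0.083 with limma on log2(CPM + 1), and the Cox7a1 slope to 0.0174 inside the gate, an alternative chosen after seeing the data, as were the omitted pools and DESeq2 for the slope difference. The median stage slope was 0.008 with limma on log2(CPM + 1) and −0.0446 outside the gate. The median between HM and HZ was −0.27 with limma on log2(CPM + 1), and ran from −0.11 to 0.09 with 1 pool left out. Without HM at 15 somites the median slope difference was −0.06. Ngn3Cre against HZ outside the gate could not be fitted, since no Ngn3Cre pool has 10 such cells. Shallow cells and few pools limit low isoforms most.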
